A study of Mus musculus with 6 samples.

Results

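Voltage-gated calcium channels each contain a single large pore-forming subunit, and 8 of the genes that encode such subunits were followed here in the mouse hippocampus: Cacna1a, Cacna1b, Cacna1c, Cacna1d, Cacna1e, Cacna1g, Cacna1h and Cacna1i. The genes were chosen by family and with their genotype difference already known, and they were 8 of 17981 genes tested and of 55471 genes in the count table. The question was how the 3 genes for T-type channels (Cacna1g, Cacna1h and Cacna1i) compared with the other 5 members after loss of CBP, a histone acetyltransferase and the product of the Crebbp gene. Because this difference led to the choice of the genes, the values of the members between genotypes are a description. No p-value is printed for them, and their calls at the threshold over all genes are a description as well.

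The data comprised 6 RNA-seq libraries of hippocampal total RNA, 3 from Control and 3 from CBP-ifKO mice, all on a C57BL/6 background. The CBP-ifKO mice carried floxed Crebbp alleles and CaMKIIα-creERT2, a tamoxifen-inducible Cre recombinase whose promoter is active in forebrain excitatory neurons, so that other cells of the hippocampus kept an intact Crebbp gene. All mice, Controls included, were 3 to 6 months old and received 5 intragastric administrations of tamoxifen at 20 mg/mL in corn oil. Hippocampi of female mice were pooled for each library, according to the study's methods. The treatment label describes the Controls as littermates without creERT2, whereas their short description field names Camk2a_creERT2. The study's methods also state that controls lacked creERT2, and the study describes higher Esr1 and Arsi as a feature of the transgenic line. Esr1, part of which is contained in creERT2, was at 6.07 ± 0.362 CPM (counts after scaling for library size) among the Controls, against 66.7 ± 2.91 CPM with CBP-ifKO (SD, n = 3), and Arsi, which lies beside Camk2a and is carried by the transgene, was at 0.77 ± 0.261 and 5.32 ± 0.895 CPM. Crebbp itself was at 191.2 ± 30.1 CPM (Control) against 98.4 ± 10.8 CPM (CBP-ifKO). Total counts ran from 10199008 to 14950257 per library. In such bulk tissue, fewer cells of a type and less RNA per cell cannot be told apart.

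Voltage-gated calcium channels open when the membrane is depolarised and let calcium enter the cell, where it drives transmitter release, firing patterns and signalling to the nucleus. L-type (Cacna1c and Cacna1d), P/Q-type (Cacna1a), N-type (Cacna1b) and R-type (Cacna1e) channels open at strong depolarisation and assemble with auxiliary beta and alpha2-delta subunits. T-type channels open near the resting potential, inactivate quickly, shape burst firing and do not need these auxiliary subunits to form a channel.

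Levels of different genes were compared as RPKM, which is CPM divided by the length of the exons. That length exceeded the longest transcript unevenly, at 25228 against 14921 bases for Cacna1e and 12310 against 7926 for Cacna1a. For Cacna1i it was 9862 against 9781 bases. The order of levels and the shares between genes depend on this choice, and transcript lengths were not tried. In Control, Cacna1e was the most abundant member at 39.9 ± 3.66 RPKM (SD, n = 3), followed by Cacna1b at 18.4 ± 1.68 RPKM. Cacna1a, at 11.5 ± 1.44 RPKM, and Cacna1h, at 11.1 ± 0.83 RPKM, overlapped. These neighbours therefore had no clear order, although Cacna1a was the higher of the pair in 5 of 6 libraries. Cacna1c stood at 9.55 ± 1.14 RPKM, Cacna1i at 7.53 ± 0.149 RPKM and Cacna1d at 7.24 ± 0.731 RPKM, and the last pair overlapped as well. Cacna1g was the least abundant at 4.70 ± 0.13 RPKM, so that Cacna1e exceeded it 8.48-fold in Control. In CBP-ifKO the order was the same except that Cacna1d, at 7.74 RPKM, lay above Cacna1i, at 5.58 RPKM. The subunit of R-type channels was thus the leading pore subunit transcript in both genotypes, and a T-type subunit the lowest.

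**Figure D1:**
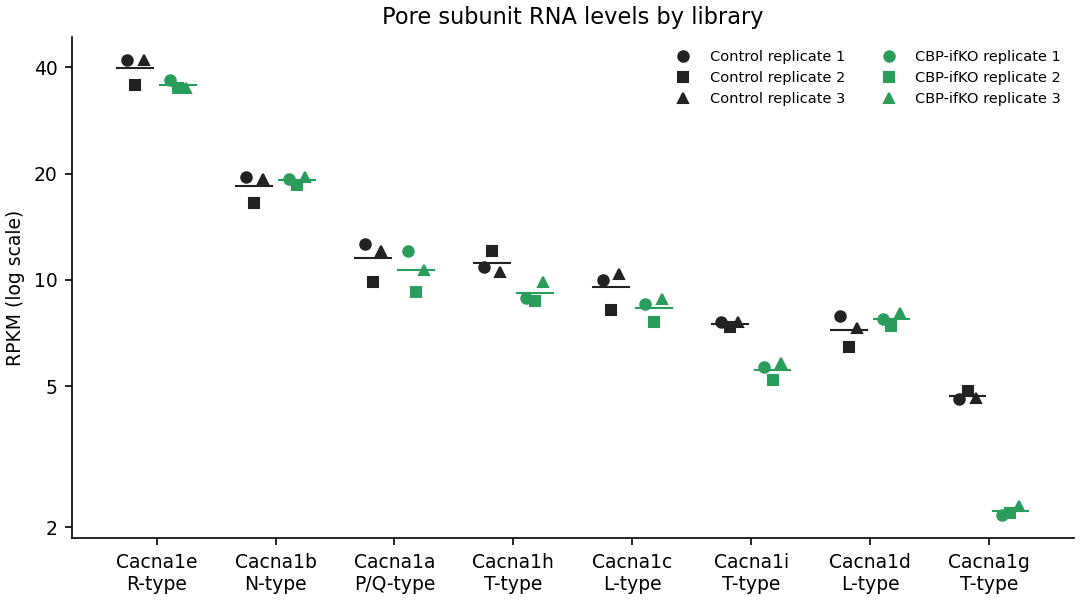
RNA level of each pore subunit gene in each library, in RPKM on a log scale, with black symbols for Control, green symbols for CBP-ifKO and a line at the mean of 3 libraries. Cacna1g, Cacna1h and Cacna1i are separated by genotype, and the groups overlap for the other 5 genes.

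Among the T-type subunits, Cacna1g differed most. The Control libraries, in order of replicate number, held 46.7, 49.1 and 47.1 CPM, and the CBP-ifKO libraries 21.9, 22.3 and 23.2 CPM. Libraries of a genotype lay close together, and the groups did not overlap. The mean was 47.6 ± 1.31 CPM (Control) against 22.5 ± 0.663 CPM (CBP-ifKO) (SD, n = 3), so that 47.2% of the level was left, with a log2 fold change of -1.08 (SE 0.079). Counts of Cacna1g were 497, 572 and 475 in Control and 226, 340 and 282 in CBP-ifKO. Cacna1g (GRCm38 chromosome 11, 94408391 to 94474198, minus strand) is known for burst firing of thalamic neurons and is also expressed elsewhere in the brain. It is on the study's list of lower genes, which kept genes retrieved in each of its RNA-seq experiments on CBP-ifKO mice. These libraries were among those experiments, and to that extent the list is not independent evidence of direction. The other experiments used saline-treated males and individual females in standard cages, and their values were not examined here.

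Cacna1i, a T-type subunit expressed mainly in the brain, reached 74.9, 72.6 and 75.3 CPM in Control and 55.8, 51.5 and 57.6 CPM in CBP-ifKO. The groups did not overlap, and the Control libraries varied less than the CBP-ifKO libraries. Its mean was 74.3 ± 1.47 CPM (Control) against 55.0 ± 3.12 CPM (CBP-ifKO) (SD, n = 3), with a log2 fold change of -0.44 (SE 0.068). Cacna1i lies on GRCm38 chromosome 15, 80287238 to 80398279, plus strand.

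Cacna1h, whose channels are known in sensory and central neurons, was at 106.3, 117.9 and 102.3 CPM in Control and 87.1, 85.0 and 96.4 CPM in CBP-ifKO. CBP-ifKO replicate 3 came nearest to the Control range, but the groups did not overlap. The mean was 108.8 ± 8.1 CPM (Control) against 89.5 ± 6.05 CPM (CBP-ifKO) (SD, n = 3), and the log2 fold change was -0.28 (SE 0.072), smaller than that of the other T-type members. Cacna1h lies on GRCm38 chromosome 17, 25374285 to 25433783, minus strand, and 1.62% of its exon bases overlap Tpsg1 on the other strand.

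The T-type genes are related in sequence, so the share of 50-base windows that each gene had in common with another gene was counted. Cacna1g shared 0.228% of its windows with Cacna1i, Cacna1i shared 0.206% with Cacna1g and Cacna1h, and Cacna1h shared 1.34% with Cacna1i and Tpsg1. Most windows of this length, the length of the reads, thus occurred in 1 of these genes alone.

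The L-type subunits did not separate by genotype. Cacna1c, the main L-type pore of the brain and heart (chromosome 6, 118587240 to 119196418), was at 219.4, 180.1 and 226.6 CPM in Control and 186.7, 166.1 and 193.1 CPM in CBP-ifKO. Control replicate 2 lay inside the CBP-ifKO range. The mean was 208.7 ± 25 CPM against 182.0 ± 14.1 CPM (SD, n = 3), and the log2 fold change was -0.20 (SE 0.081). Cacna1d, the L-type pore that opens at more negative potentials (chromosome 14, 30039939 to 30491455), was at 120.4, 98.3 and 111.0 CPM in Control and 117.6, 112.6 and 122.3 CPM in CBP-ifKO. The groups overlapped, with means of 109.9 ± 11.1 and 117.5 ± 4.85 CPM (SD, n = 3) and a log2 fold change of 0.097 (SE 0.073). Cacna1d has 4.67% of its exon bases in common with Chdh on the other strand.

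The subunits of the presynaptic channels overlapped as well. Cacna1a, the P/Q-type pore that carries much of the calcium for fast transmitter release (chromosome 8, 84388440 to 84640246), was at 155.1, 121.6 and 148.4 CPM in Control and 148.9, 113.6 and 131.3 CPM in CBP-ifKO. Replicate 2 was the lowest library of each genotype, and the spread within a genotype was larger than the distance between the means, 141.7 ± 17.7 and 131.2 ± 17.6 CPM (SD, n = 3). The log2 fold change of Cacna1a was -0.11 (SE 0.095), and 3.81% of its exon bases overlap the antisense gene Gm16183. Cacna1b, the N-type pore and target of the cone snail toxin ω-conotoxin (chromosome 2, 24603887 to 24763152), was at 194.5, 164.2 and 191.4 CPM in Control and 191.5, 184.0 and 194.8 CPM in CBP-ifKO. Its CBP-ifKO libraries fell within or just above the Control range, with means of 183.4 ± 16.7 and 190.1 ± 5.55 CPM (SD, n = 3) and a log2 fold change of 0.052 (SE 0.067).

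Cacna1e, the R-type pore (chromosome 1, 154390731 to 154884501), was at 1057.9, 899.1 and 1059.9 CPM in Control and 927.0, 877.6 and 882.3 CPM in CBP-ifKO. Control replicate 2 again lay within the CBP-ifKO range, below CBP-ifKO replicate 1. The mean was 1005.6 ± 92.3 CPM (Control) against 895.7 ± 27.3 CPM (CBP-ifKO) (SD, n = 3), with a log2 fold change of -0.17 (SE 0.065).

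By the edgeR quasi-likelihood test, with an adjusted p under 0.05 over all genes tested, 3 of the 8 members were called, all of them lower. Over all genes tested 6.39% were called, 4.99% lower and 1.4% higher, and nothing is read from the comparison because the members were chosen on this contrast. The groups did not overlap for the same 3 members, against 25.6% of all genes tested in either direction and 13.9% in the lower direction. Calls depend on the adjusted p, and so on the spread between libraries as well as on the fold change. Cacna1h, at -0.28, was the smallest called difference. Cacna1c and Cacna1e, at -0.20 and -0.17, had the next smaller differences and were not called. The median log2 fold change was -0.44 for the T-type members and -0.11 for the other members, against -0.0033 over all genes tested.

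The calls of Cacna1g and Cacna1i held under all 16 alternative settings, while that of Cacna1h was lost under 6 of them. These were refits of the libraries on which the members were chosen, so a call that held is a description and adds no support. Without Control replicate 2, the library lowest in all 5 other members among the Controls, Cacna1c (log2 fold change -0.29) and Cacna1e (-0.23) were called and Cacna1h (-0.21) was not, so that the order of T-type and other members was broken.

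**Figure D2:**
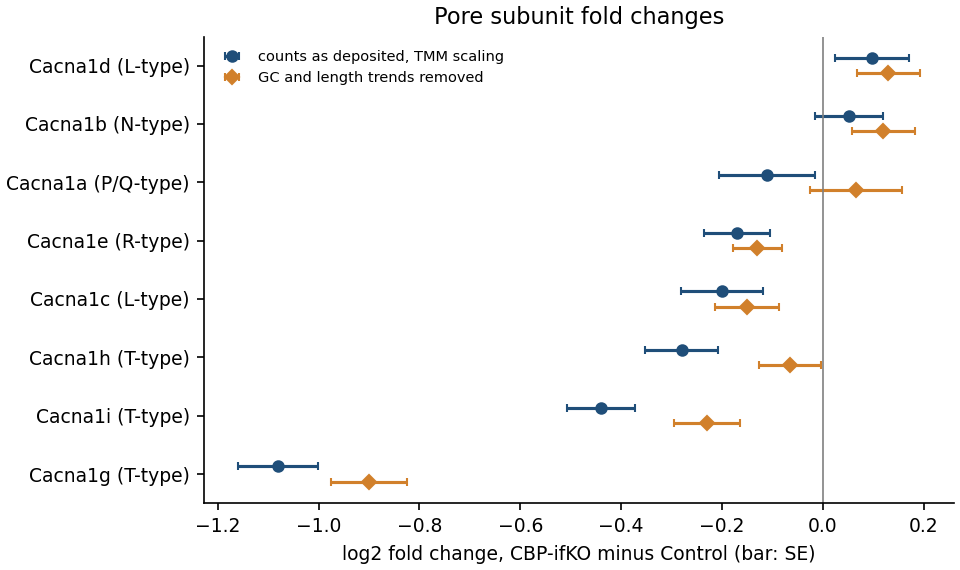
Log2 fold change of each pore subunit gene, CBP-ifKO minus Control, with bars of 1 SE, from the counts as deposited (blue circles) and after trends with GC content and gene length were removed (orange diamonds). Cacna1g moves from -1.08 to -0.90 and Cacna1h moves from -0.28 to -0.065.

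The members also differed in base composition. GC content was 58.1% for Cacna1g, 60% for Cacna1h, 59.3% for Cacna1i and 58.4% for Cacna1a, but 52.9% for Cacna1b and between 48.3% and 50.3% for Cacna1c, Cacna1d and Cacna1e. The genes tested were split by GC content into 10 bins of nearly equal gene number. The median log2 fold change ran from 0.072 in the lowest to -0.19 in the highest bin. It was -0.16 over the 708 genes with a GC content between those of Cacna1g and Cacna1h. All T-type members thus lay in the range of GC content where tested genes were on average lower in CBP-ifKO. When trends with GC content and length were removed in each library, Cacna1g was at -0.90 (SE 0.076) and Cacna1i at -0.23 (SE 0.066), both still called. Cacna1h was at -0.065 (SE 0.061) and no longer called. In the same fit Cacna1a was at 0.065 (SE 0.091), Cacna1b at 0.12, Cacna1c at -0.15, Cacna1d at 0.13 and Cacna1e at -0.13. With the replicate block added to this fit, Cacna1c, at -0.14, was called as well. Cacna1h lay above Cacna1c and Cacna1e in the fit without the block, and Cacna1g and Cacna1i remained the lowest members.

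**Figure D3:**
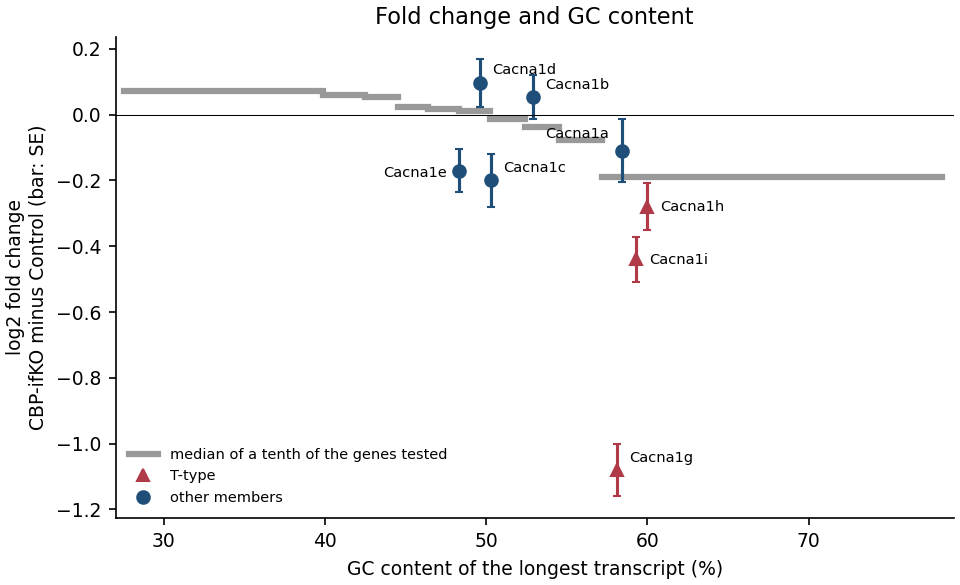
Log2 fold change of each member (bars of 1 SE) against the GC content of its longest transcript, with grey lines at the median of each of 10 equal bins of the genes tested. The T-type members (red triangles) and Cacna1a lie at 58.1% to 60% GC, where the median of the tested genes is below 0, and Cacna1g lies furthest below that line.

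Summed over the family, T-type RNA was at 23.1, 24.3 and 22.8 RPKM in Control and 16.7, 16.1 and 18 RPKM in CBP-ifKO. The groups did not overlap, which followed from the lack of overlap in each of the 3 genes. The other 5 members summed to 92.1, 76.7 and 91.0 RPKM in Control and 84.4, 77.5 and 82.1 RPKM in CBP-ifKO, with Control replicate 2 the lowest of the 6 libraries. The T-type share of pore subunit RNA was 20%, 24% and 20% in Control and 16.6%, 17.2% and 18% in CBP-ifKO, again with no overlap. These sums and shares are built from the values that led to the choice of the genes. The share was not recomputed with GC and length trends removed. On average, T-type genes made up 21.4 ± 2.31% of pore subunit RNA in Control and 17.3 ± 0.711% in CBP-ifKO (SD, n = 3), a difference of -4.11 percentage points. Without scaling for gene length, as a share of summed CPM, these were 12.4% and 9.92%, a difference of -2.43 percentage points. Control replicate 2 had the largest share, and without it the difference was -2.78 percentage points.

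**Figure D4:**
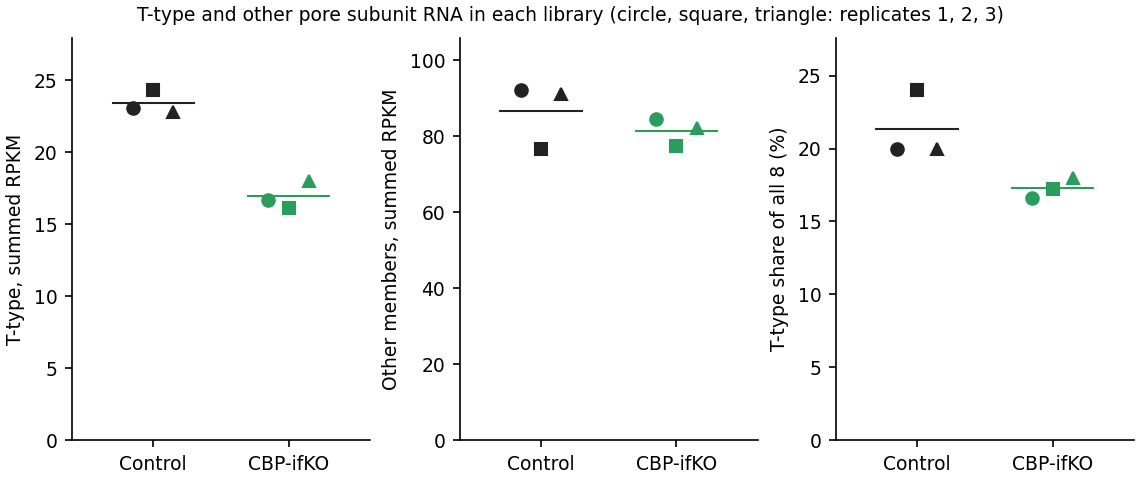
Summed RPKM of the 3 T-type genes (left), summed RPKM of the other 5 genes (middle) and the T-type share of all 8 in percent (right) in each library, with lines at group means. The T-type sum is between 22.8 and 24.3 in Control and between 16.1 and 18 in CBP-ifKO, and the sums of the other genes overlap.

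The remaining genes of the family were rare in this tissue. Cacna1f, the L-type pore of the retina, had counts of 18, 14 and 13 in Control and 3, 9 and 15 in CBP-ifKO. At this depth no difference was detectable (log2 fold change -0.95, SE 0.41, edgeR adjusted p 0.194). Cacna1s, the L-type pore of skeletal muscle, had between 0 and 5 counts per library and was not tested.

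CREB, a transcription factor that recruits CBP, binds the cyclic AMP response element TGACGTCA and its half-site TGACG, and promoters of the members were searched for both. Windows from 250 bases before to 50 bases after the start were held for 5 of the 8 members (RefSeq, GRCm38.p6). No window was held for Cacna1a, Cacna1g or Cacna1h, so their promoters were not searched. On either strand, the full element occurred in 1.79% of 32851 mouse promoter windows and the half-site, which is contained in the full element, in 20.8%. None of the windows of the 5 members searched held the full element. The half-site occurred in Cacna1i, in Cacna1b and in 1 of the 3 windows of Cacna1c. The windows of Cacna1i (chr15:80286988-80287287, plus strand) and Cacna1b (chr2:24763103-24763402, minus strand) are shown because both hold the half-site while the genes differed in their values, with log2 fold changes of -0.44 and 0.052. Each is written 5′ to 3′ along its gene's strand with the half-site in capitals, which in Cacna1i lies on the opposite strand, as CGTCA, at -72 from the start, and in Cacna1b lies at -87.
Cacna1i: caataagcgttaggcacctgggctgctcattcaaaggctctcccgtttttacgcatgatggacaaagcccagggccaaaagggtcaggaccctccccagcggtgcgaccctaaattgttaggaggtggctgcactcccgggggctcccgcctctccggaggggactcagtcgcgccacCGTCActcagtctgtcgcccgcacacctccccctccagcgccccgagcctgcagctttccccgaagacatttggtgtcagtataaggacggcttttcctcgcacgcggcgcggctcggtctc
Cacna1b: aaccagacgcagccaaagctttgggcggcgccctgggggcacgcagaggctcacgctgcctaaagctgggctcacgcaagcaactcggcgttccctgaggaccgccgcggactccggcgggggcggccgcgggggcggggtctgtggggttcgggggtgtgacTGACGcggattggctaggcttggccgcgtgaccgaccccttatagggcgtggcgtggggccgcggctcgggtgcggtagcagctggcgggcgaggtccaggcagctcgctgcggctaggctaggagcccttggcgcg
These matches are a description of letters and say nothing of whether a factor was bound.

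The pattern of each T-type member over the 6 libraries was compared with that of 17432 genes of at least 1 CPM, as the root mean square difference of log2 levels centred on each gene's mean. This measure contains the difference between genotypes, so near genes tend to share the log2 fold change. The genes nearest to Cacna1g were Ier5l (0.0407), Grp, which encodes gastrin-releasing peptide (0.0913), and Igfbp4, which encodes a binding protein of insulin-like growth factors (0.0985). Their log2 fold changes were -1.17, -1.04 and -1.05, against -1.08 for Cacna1g. Nearest to Cacna1i were Myo18a (0.0189), which encodes an unconventional myosin, Adam11 (0.0267) and Rab26 (0.033). Their log2 fold changes were -0.41, -0.39 and -0.44. The genes nearest to Cacna1h were Tm7sf2 (0.0276), the antisense gene 4921504A21Rik (0.0276) and Stn1 (0.0345). These had log2 fold changes of -0.32, -0.32 and -0.25, and none was called (edgeR adjusted p 0.148, 0.44 and 0.303). The T-type members were not each other's nearest genes, with differences of 0.402 between Cacna1g and Cacna1h, 0.327 between Cacna1g and Cacna1i and 0.113 between Cacna1h and Cacna1i. Their unlike log2 fold changes enter these differences. The closest pair among all 8 members was Cacna1b and Cacna1d (0.0371).

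Genes that act with the pore subunits or handle the same calcium were tested from lists of auxiliary subunits, regulators and calcium transporters. Of 62 genes tested, Cacna1f included, 13 were lower, 1 was higher and 48 did not pass the edgeR threshold, with a median log2 fold change of -0.12. Over all 17981 genes tested, 4.99% were lower and 1.4% higher by that threshold, with a median of -0.0033. The lists were chosen with earlier results of these data known, so these counts are a description. Of the 4 beta subunits, which sit on the cytoplasmic side and carry channels to the membrane, Cacnb1 fell from 65.8 ± 1.21 to 48.8 ± 6.47 CPM (± SD of 3 libraries, log2 fold change -0.44, edgeR adjusted p 0.00468) and Cacnb3 fell from 78.4 ± 4.67 to 60.9 ± 7.61 CPM (-0.37, edgeR adjusted p 0.0157). Cacnb2 and Cacnb4 had log2 fold changes of -0.11 and -0.057 and did not pass. With GC and length trends removed, neither was called, with Cacnb1 at -0.25 (edgeR adjusted p 0.0921) and Cacnb3 at -0.15 (0.339). With the replicate block added to that fit, Cacnb1 was called (edgeR adjusted p 0.0148) and Cacnb3 was not (0.138). Cacnb3 was also not called without Control replicate 3 or CBP-ifKO replicate 2. None of the 4 alpha2-delta subunits, which sit on the outer face of the channel and promote its delivery to the membrane, passed the threshold. Cacna2d1 was at 451.8 CPM (Control) against 453.6 CPM (CBP-ifKO) (edgeR adjusted p 0.971), and Cacna2d3 at 164.3 and 147.6 CPM (edgeR adjusted p 0.138). None of 7 gamma subunits and TARPs passed, of which Cacng8 and Cacng2, which traffic AMPA receptors, had log2 fold changes of -0.084 and -0.018.

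Among regulators of the channels, 5 of 15 were lower, against 4.99% of all genes tested. Rem2, a small GTPase known to inhibit high-voltage-activated currents, fell from 9.86 ± 1.06 to 5.47 ± 0.773 CPM (± SD of 3 libraries, log2 fold change -0.86, edgeR adjusted p 0.00273). Calm3, 1 of the calmodulin genes, fell from 1253.7 ± 112 to 995.5 ± 26.6 CPM (-0.33, edgeR adjusted p 0.00427). These calls held under all 16 alternatives. Stac2, an adaptor of L-type channels (-0.75, edgeR adjusted p 0.0235), Cabp1, a calcium sensor that competes with calmodulin on them (-0.43, edgeR adjusted p 0.0065), and Rims1, an active zone scaffold (-0.21, edgeR adjusted p 0.0393), also fell. Each of these was lost in some alternatives, Stac2 in 4, Cabp1 in 1 (without CBP-ifKO replicate 2) and Rims1 in 6. Leaving out CBP-ifKO replicate 2, CBP-ifKO replicate 3 or Control replicate 3 ended the calls of both Stac2 and Rims1. The call of Rims1 was also lost without Control replicate 1, with upper-quartile scaling and with library totals only. Removing GC and length trends, without the replicate block, ended the call of Stac2 (log2 fold change -0.61, edgeR adjusted p 0.0649). The 4 tested genes of the NALCN sodium leak channel complex, a relative of the calcium channels, did not pass, with log2 fold changes of 0.19 for Nalcn and -0.014 for Unc80.

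Calcium removal showed 2 lower genes of 10, against 4.99% lower and 1.4% higher over all genes tested. Atp2b4, a calcium pump of the plasma membrane, fell from 107.4 ± 15 to 68.7 ± 4.86 CPM (± SD of 3 libraries, log2 fold change -0.65, edgeR adjusted p 3.69e-04), and Slc8a1, a sodium-calcium exchanger, fell from 1186.3 ± 72.4 to 926.1 ± 15.4 CPM (-0.36, edgeR adjusted p 0.00121). Both calls held under all 16 alternatives. Of 11 genes of store release and entry, the ryanodine receptor Ryr1 (-0.40, edgeR adjusted p 0.0146) and the store sensor Stim2 (-0.23, edgeR adjusted p 0.0351) were lower and the store sensor Stim1 (0.26, edgeR adjusted p 0.0361) was higher. Of 6 calcium-activated potassium channel genes, Kcnma1 (-0.24, edgeR adjusted p 0.0425) and Kcnn2 (-0.28, edgeR adjusted p 0.0298) were lower. These 5 calls were lost in between 4 and 7 of the 16 alternatives, and all kept their sign. Leaving out Control replicate 3 ended all 5 calls, and leaving out CBP-ifKO replicate 2 ended all but that of Stim1. The calls of Stim1, Stim2, Kcnma1 and Kcnn2 were also lost when Control replicate 1 or CBP-ifKO replicate 3 was left out, those of Stim1, Stim2 and Kcnma1 without CBP-ifKO replicate 1, and that of Stim1 without Control replicate 2. Removing GC and length trends, with or without the replicate block, ended the calls of Ryr1 (log2 fold change -0.21) and Kcnn2 (-0.19). Scaling by library totals only ended those of Stim2, Kcnma1 and Kcnn2, and upper-quartile scaling those of Stim2 and Kcnma1.

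**Figure D5:**
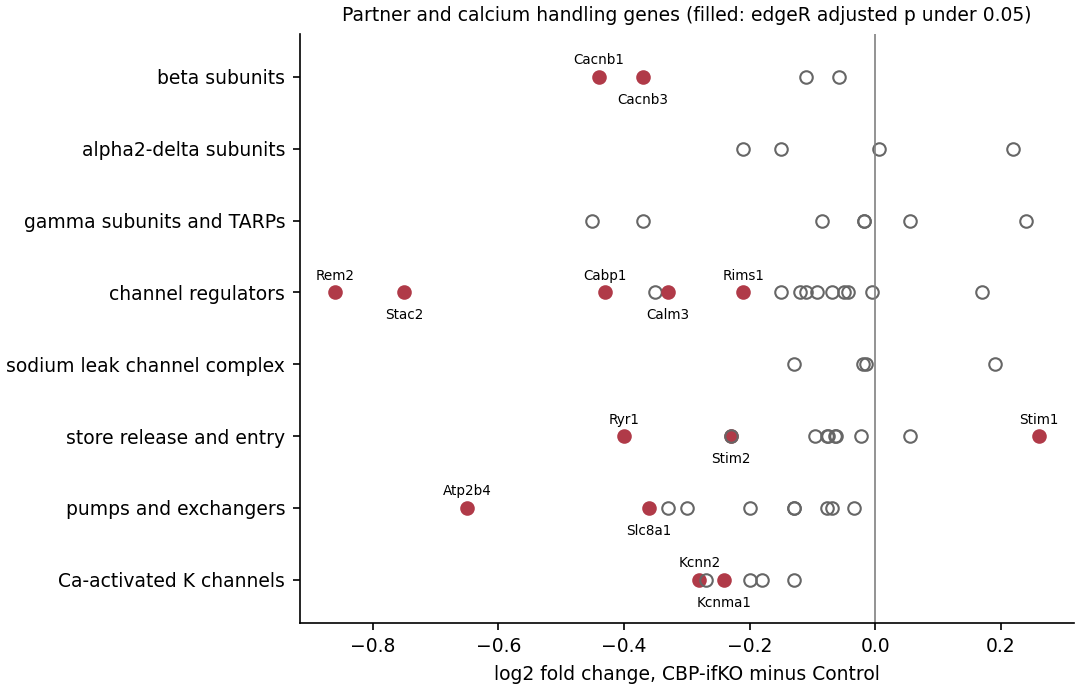
Log2 fold change, CBP-ifKO minus Control, of the tested genes of each list, with filled red points for genes past the edgeR threshold and open points for the others. Most points lie below 0, Rem2 at -0.86 is the lowest filled point, and Stim1 at 0.26 is the only filled point above 0.

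Marker genes of the cells in the tissue were measured beside these values. Over all genes tested, 4.99% were called lower and 1.4% higher. Of 6 CA1 pyramidal markers 5 were called lower, Wfs1 most (log2 fold change -1.19, edgeR adjusted p 8.34e-07), and their summed level was 407.5 to 419.1 CPM in Control and 260.3 to 266.5 CPM in CBP-ifKO. The median log2 fold change of these markers was -0.62, between the values of Cacna1g and Cacna1i. GC content of the called CA1 markers was 57.8% (Wfs1), 59.4% (Fibcd1), 63.9% (Pou3f1), 53.7% (Mpped1) and 37.4% (Dcn). No marker value with GC trends removed is given. Of 6 CA3 markers 1 was called lower. Their sum was lower without overlap, 563.7 to 593.2 CPM in Control and 495.9 to 557.2 CPM in CBP-ifKO. Of 7 dentate granule markers 1 was lower and 1 higher, with overlapping sums of 719.6 to 769.9 and 749.9 to 805.1 CPM. None of 5 general excitatory markers was called, whereas 2 of 4 pan-neuronal markers (Rbfox3 and Tubb3) and 2 of 8 interneuron markers (Slc32a1 and Sst) were lower. None of the 8 thalamic markers was called (summed level 100.2 to 107.1 CPM in Control and 93.8 to 102.4 CPM in CBP-ifKO), and 1 of 5 tested striatal markers, Rgs9, was higher. No marker of astrocytes, oligodendrocytes, microglia, endothelium or choroid plexus was called. Astrocyte markers nevertheless had a lower sum without overlap, 1770.5 to 1815.4 CPM in Control and 1641.9 to 1716.9 CPM in CBP-ifKO. The same held for pan-neuronal (3427.3 to 3640.9 against 3039.8 to 3244.9 CPM) and interneuron markers (558.1 to 592.7 against 505.4 to 538.2 CPM). Sums of the general excitatory, oligodendrocyte, microglia, endothelial, choroid plexus, thalamic and striatal markers overlapped. No marker was at 0 in all libraries. The part of these markers in the values of the T-type genes was not tested.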

How the data were processed

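Hippocampal RNA was sequenced as single-end reads of 50 bases. Per the submitters' processing notes and the study's methods, the authors trimmed reads (Trim Galore 0.6.4), aligned them with STAR 2.6.1 to GRCm38, removed reads of low mapping quality and counted exons with Rsubread. The deposited values are raw counts per gene. Use of strand in counting was not stated. Groups came from the sample titles and the genotype labels.

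Counts were tested with the edgeR 4.0.16 quasi-likelihood F-test (R 4.3.3), with TMM scaling, filterByExpr (minimum count 10, minimum total 15) and Benjamini-Hochberg adjustment over 17981 genes at 0.05. SE is the log2 fold change divided by the square root of F. Symbols, coordinates and GC content came from GENCODE M21 (99.57% of identifiers matched). The fit was tested on simulated data.

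The members, lists and naming rule (all members and relatives, every called gene of a list, otherwise its 2 most abundant genes, and the 3 nearest genes of each T-type member) were chosen with earlier results of these data known. Alternatives were DESeq2 1.42.0, limma-voom 3.58.1, 3 other scalings, 2 other filters, each library left out, the replicate number as a block, offsets for GC content and length (splines, 5 degrees of freedom), and both together. P-values measure the spread between these pooled libraries.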

Additional observations from a re-analysis of the deposited data

How the results depend on the processing

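The log2 fold changes of Cacna1g, Cacna1h and Cacna1i kept their sign under all 16 alternatives. With GC and length offsets they were -0.90, -0.065 and -0.23, with the replicate block added -0.90, -0.064 and -0.23, and Cacna1g was at -1.04 with library totals only. Cacna1h lost its call under these offsets with and without the block, with library totals only, and when Control replicate 2 or either of CBP-ifKO replicates 1 and 2 was left out. All T-type members lay below all others in 13 of 16 alternatives, the exceptions being both fits with offsets and the fit without Control replicate 2. Leaving out 1 library gave between 498 and 1326 called genes and between 6 and 15 called genes of the calcium lists. The offsets gave 9 of the latter, and with the block 1839 genes were called. Deviations from the group means correlated at 0.0769, 0.0369 and 0.00216 between libraries of the same number, too little to pair them. The replicate block gave 1210 called genes and changed no call of a member, but added to the offsets it led to a call of Cacna1c (-0.14). The causes were not tested. At this depth (10199008 to 14950257 counts per library), Cacna1s was too rare to test and the fold change of Cacna1f was imprecise.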

Other observations

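Control replicate 2 was the lowest Control library for Cacna1a (121.6 CPM), Cacna1b (164.2 CPM), Cacna1c (180.1 CPM), Cacna1d (98.3 CPM) and Cacna1e (899.1 CPM), and the highest for the T-type genes Cacna1g (49.1 CPM) and Cacna1h (117.9 CPM). Cacna1i, at 72.6 CPM, was lowest there as well.

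Ier5l, the gene whose pattern was nearest to that of Cacna1g, was at 2.99 ± 0.109 CPM (Control) against 1.32 ± 0.0602 CPM (CBP-ifKO) (SD, n = 3). Grp, which encodes a neuropeptide, was at 14.2 ± 0.393 and 6.84 ± 0.913 CPM, and Igfbp4 at 45.6 ± 5.51 and 22.1 ± 1.54 CPM. Because these genes were picked by a measure that contains the genotype difference, their values are a description.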
